A study of Mus musculus with 2 samples.

Results

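The genes described here stand where the cell cycle meets the p53 response: 3 inhibitors of cyclin-dependent kinases (Cdkn1a, Cdkn1b and Cdkn2c), 4 regulators and targets of p53 (Mdm2, Ccng1, Trp53inp1 and Phlda3) and 3 growth arrest or stress genes (Btg2, Gadd45a and Sesn1). Transcript counts of the group were read in every marker-defined cell class of both libraries. These 10 genes were chosen by symbol from the 32285 features counted in the embryonic mouse pancreas. Single cells at embryonic day 14.5 were assayed with 10x Genomics droplets, which count tagged RNA molecules (unique molecular identifiers, UMIs) near the 3′ end. One library, Control, pooled 8 pancreata from 3 litters with the genotypes Fgf9 +/+ and +/-. The other, Null, pooled 3 pancreata from 3 litters that were Fgf9 -/-, in which a LacZ cassette inserted at the locus makes a functional knockout of this secreted fibroblast growth factor in the whole animal. All embryos were on a C57BL/6J background, and cells were dissociated with TrypLE and sorted as DAPI-negative through a size gate, which can shape which cells were seen. Each group is thus 1 library, so no test between groups was possible. Every interval is an exact 95% interval and covers counting error alone; how embryos or preparations vary is not in it.

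Kinase inhibitors of the Cip/Kip family (p21, encoded by Cdkn1a, and p27, encoded by Cdkn1b) bind cyclin and kinase complexes, while those of the Ink4 family (p18, encoded by Cdkn2c) bind the kinases of the early cell cycle themselves. The transcription factor p53 raises the transcription of Cdkn1a, of Mdm2, whose product marks p53 for degradation, and of other genes that slow division or handle stress. In the embryonic pancreas, cells that leave the trunk epithelium for the endocrine lineage switch on the transcription factor Neurog3 for a short time and leave the cell cycle, and Cdkn1a is known to be raised at that step.

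The Control library held 30209 barcodes with 339959625 UMIs and the Null library 16708 barcodes with 271129120 UMIs. Filters and removal of called doublets left 26959 barcodes in Control, with 5728 UMIs at the median, and 8831 in Null, with 24282. Of the kept barcode sequences, 73 occurred in both libraries. Clusters were named from fixed markers, giving 10 classes, and 11842 Control and 940 Null barcodes, mostly of low UMI count, stayed unnamed. Pancreatic identity was clear from the marker lists, since the 9 acinar markers summed to 18524 and 32361 CPM (a gene's UMIs scaled to a common class total) in Control and Null acinar-like cells and the 12 endocrine markers to 33453 and 59931 CPM in endocrine-like cells. RNA free in the droplets, estimated from barcodes below the filter, was a larger part of Control than of Null cells, at 37.8% against 6.22% in endocrine-like cells, 29.4% against 8.13% in mesenchymal-like cells and 17.1% against 5.25% in mesothelial-like cells. The Control estimate rests on 244 barcodes with 196463 UMIs. Among these, Cdkn2c and Phlda3 had 1 UMI each and Cdkn1a 11, so the free RNA shares of these genes in Control are imprecise. The pools also differed in cells with a Y-linked UMI and at most 1 Xist UMI, which were 1374 of 3463 acinar-like cells in Control and 2420 of 2514 in Null, and 98 of 405 and 213 of 271 leukocyte-like cells. With 1 library a group, this difference cannot be told apart from genotype in ratios over all cells. Within such cells of both libraries, 10 of the 11 ratios of Null over Control past 1.5-fold given later were still past it, and Phlda3 in leukocytes was not. Classes carry the suffix "-like" in full and are called by the short name from here on.

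Promoters are shown for Cdkn1a, Gadd45a and Btg2, the 3 genes with the highest CPM in endocrine progenitors, on which the lineage results turn. RefSeq promoters (GRCm38.p6, 250 bases before to 50 after a start) were found for 9 of the 10 genes. Capitals mark matches to the p53 half-site consensus, searched on both strands. The upstream of the 2 Cdkn1a starts lies at chr17:29090729-29091028 (plus strand) and holds 2 half-sites, which begin 73 and 51 bases before the start. The promoter of the other Cdkn1a start, chr17:29093519-29093818, is not shown and holds no half-site. Gadd45a at chr6:67037358-67037657 (minus strand) holds 1, which begins 40 bases before its start, and Btg2 at chr1:134079106-134079405 (minus strand) holds none.
Cdkn1a: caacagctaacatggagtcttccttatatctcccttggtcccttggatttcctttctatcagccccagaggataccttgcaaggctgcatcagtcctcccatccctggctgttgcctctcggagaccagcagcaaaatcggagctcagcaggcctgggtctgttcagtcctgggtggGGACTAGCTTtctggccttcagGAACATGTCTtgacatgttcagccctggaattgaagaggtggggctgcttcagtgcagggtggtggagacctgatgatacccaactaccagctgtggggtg
Gadd45a: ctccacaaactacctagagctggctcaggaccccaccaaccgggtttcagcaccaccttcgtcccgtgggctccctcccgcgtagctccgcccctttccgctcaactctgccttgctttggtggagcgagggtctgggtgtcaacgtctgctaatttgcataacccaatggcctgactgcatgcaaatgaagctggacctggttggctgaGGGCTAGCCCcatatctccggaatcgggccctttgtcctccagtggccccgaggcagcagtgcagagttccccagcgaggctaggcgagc
Btg2: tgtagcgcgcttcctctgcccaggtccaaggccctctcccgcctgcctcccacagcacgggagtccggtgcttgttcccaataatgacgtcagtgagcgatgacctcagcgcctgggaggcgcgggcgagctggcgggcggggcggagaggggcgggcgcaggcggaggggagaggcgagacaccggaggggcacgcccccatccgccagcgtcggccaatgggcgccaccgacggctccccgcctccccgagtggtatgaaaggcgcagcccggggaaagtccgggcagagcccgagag
A single half-site occurred in 8.36% of 32851 promoters of the same length, whereas a pair no more than 13 bases apart occurred in 24 of them (0.0731%), and the upstream Cdkn1a start was the one promoter among those of the 9 genes with such a pair. Mdm2 had a half-site 186 bases before its start, Ccng1 185 and the second start of Sesn1 173. The E-box CAGATG, present in 17.2% of all promoters, was in none of the promoters of the 9 genes. CAGCTG, present in 16.3%, was in those of Mdm2 and of the upstream Cdkn1a start only. A match is a description of letters in a 300-base window, and reads tagged near the 3′ end do not tell which start was used.

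On GRCm38, Cdkn1a (ENSMUSG00000023067) lies on chromosome 17 from 29090976 to 29100727 (plus strand), Cdkn1b (ENSMUSG00000003031) on chromosome 6 from 134920401 to 134925513 (plus) and Cdkn2c (ENSMUSG00000028551) on chromosome 4 from 109660876 to 109667189 (minus). Gadd45a (ENSMUSG00000036390) lies on chromosome 6 from 67035096 to 67037457 (minus) and Btg2 (ENSMUSG00000020423) and Phlda3 (ENSMUSG00000041801) on chromosome 1 from 134075170 to 134079120 (minus) and from 135766119 to 135769136 (plus). Mdm2 (ENSMUSG00000020184) and Sesn1 (ENSMUSG00000038332) lie on chromosome 10 from 117688875 to 117710758 (minus) and from 41809935 to 41908424 (plus), Ccng1 (ENSMUSG00000020326) on chromosome 11 from 40748552 to 40755311 (minus) and Trp53inp1 (ENSMUSG00000028211) on chromosome 4 from 11156431 to 11174379 (plus). Over all kept cells the group had from 1356 UMIs (Cdkn2c) to 69917 UMIs (Btg2) in Control and from 1033 to 60461 in Null, so every member could be measured.

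All 10 genes had their highest class in common between the libraries, and for 6 of them (Cdkn1a, Gadd45a, Btg2, Trp53inp1, Mdm2 and Sesn1) that class was the endocrine progenitor. How many of all measured genes do the same was not counted. The 10 genes were also chosen with earlier results of these data known, so both counts describe these genes alone. For Sesn1 in both libraries, and for Mdm2 in Null, the first class was within counting error of the next, as it was for Phlda3 and Ccng1 in Control. The clustering had been made without these 10 genes. Cdkn1a stood at 728 CPM (interval 714 to 743) in Control and 901 CPM (878 to 923) in Null endocrine progenitors. Leukocytes came next with 201 and 215 CPM, then endocrine cells with 184 and 175, ductal or trunk progenitor cells with 121 and 150 and acinar cells with 76.2 and 85.7. Its lowest levels were 15.4 CPM in Control mural cells and 11.1 CPM in Null mesenchymal cells, so the highest and lowest classes were 47.2-fold and 80.9-fold apart. In both libraries the 4 epithelial classes and leukocytes held the first 5 places, and neighbours in this order were apart beyond counting error except leukocytes and endocrine cells in Control.

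**Figure D1:**
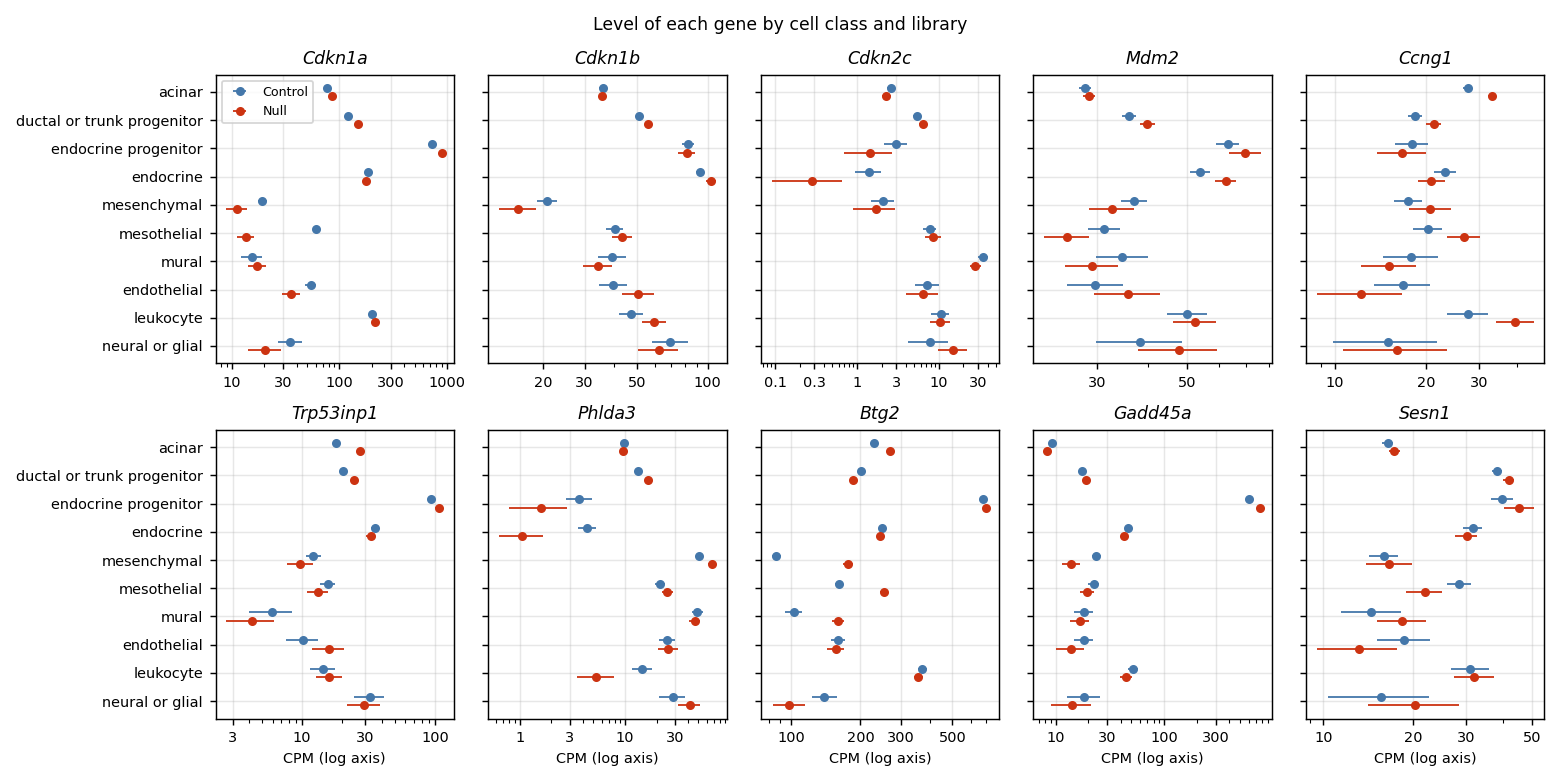
Level of each of the 10 genes in CPM (log axis, which differs between panels) by cell class, with the Control library in blue and the Null library in red; bars are exact 95% Poisson intervals. Cdkn1a and Gadd45a peak in endocrine progenitors in both libraries, at 728 and 901 CPM and at 603 and 760 CPM, while Cdkn2c peaks in mural cells and Phlda3 in mesenchymal cells.

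Gadd45a, which encodes a small stress protein that acts in growth arrest and DNA demethylation, was the most restricted of the group. Endocrine progenitors held 603 CPM in Control and 760 CPM in Null, 11.7-fold and 17.0-fold above leukocytes, the next class, at 51.7 and 44.7 CPM. Acinar cells were lowest with 9.38 and 8.38 CPM, below the 30.5 and 32.8 CPM of the free RNA. Gadd45a overlaps E230016M11Rik on the other strand, which is also counted, and reads of both cannot be told apart if strand was not used. Btg2, an antiproliferative gene of early response kinetics, was detected in every class and reached 681 and 696 CPM in endocrine progenitors, with leukocytes next at 371 and 356 CPM and the lowest values at 86.5 CPM (Control mesenchymal) and 98.5 CPM (Null neural or glial). Trp53inp1, whose product helps p53 act and takes part in autophagy, stood at 94.1 and 108 CPM in endocrine progenitors, 2.67-fold and 3.27-fold above endocrine cells.

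Cdkn1b and the remaining genes followed other patterns. Cdkn1b was highest in endocrine cells (92.8 and 104 CPM) and then in endocrine progenitors (82.8 and 81.4 CPM), and lowest in mesenchymal cells (20.9 and 15.7 CPM). Mdm2, the p53 ubiquitin ligase, varied little, from 28.0 to 63.0 CPM over Control classes and from 25.3 to 69.7 CPM over Null classes. Ccng1, encoding cyclin G1, ranged from 15.0 to 27.6 CPM and from 12.2 to 39.5 CPM with leukocytes and acinar cells first in both libraries, and in Control these 2 classes (27.6 and 27.5 CPM) did not differ beyond counting error. Sesn1, which encodes a stress-inducible restraint on growth signalling, ranged from 14.5 to 39.6 CPM and from 13.1 to 45.2 CPM.

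Cdkn2c and Phlda3 were highest outside the epithelium. The mural class is 1 cluster led by the smooth muscle genes Acta2, Actg2 and Tagln, with Mgp, Lum and Sparcl1 also among its 10 leading genes. Its 8 mesenchymal markers summed to 4877 and 8012 CPM in Control and Null, above its 10 mural markers at 2578 and 1782 CPM. The class was not stable: with 50 principal components 23 Control and 1 Null cells were named mural, against 360 and 283. Cdkn2c reached 34.9 CPM in Control and 27.8 CPM in Null mural cells, against 1.38 and 0.279 CPM in endocrine cells. Of the mural cells with enough depth, 324 of the Control library had at least 2 UMIs of the division genes Mki67 and Top2a and 27 had none. In the Null library 168 had them and 90 had none. Cdkn2c was at 37.2 CPM in the Control mural cells with these UMIs and 6.16 CPM (2 UMIs) in those without. In Null it was at 39.0 and 2.59 CPM (4 UMIs). Cells with these UMIs were most of the mural cells compared in each library, and those without gave few Cdkn2c UMIs. Among the cells with these UMIs in classes split the same way, mesothelial cells came next with 17.1 and 30.9 CPM. Why mural cells were highest was not tested. Phlda3, whose product opposes Akt at the membrane, stood at 50.7 and 67.0 CPM in mesenchymal cells and 48.8 and 46.0 CPM in mural cells, and in endocrine progenitors it was at 3.70 and 1.59 CPM.

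Within the endocrine lineage the genes did not all peak at the same step. These clusters were picked by their leading genes after values were seen, and the comparison between them is a description. Gadd45a and Cdkn1a, though kept out of the clustering, are themselves among the 10 leading genes of the cluster with most Neurog3 and of the Ghrl-led cluster. A trunk cluster led by BC006965 and Spon1 had 126 and 137 CPM of Cdkn1a. In a trunk cluster led by Grin3a and Cxcl12, where Neurog3 stood at 493 and 707 CPM, Cdkn1a was at 742 and 957 CPM, 2.56 and 2.80 higher on the log2 scale, while Gadd45a was still at 43.1 and 61.7 CPM. In the cluster with most Neurog3 (2207 and 2834 CPM), Cdkn1a was at 861 and 1076 CPM and Gadd45a at 761 and 970 CPM, the latter 5.35 and 5.85 above the first trunk cluster on the log2 scale. The Grin3a-led cluster thus had most of the Cdkn1a of the Neurog3-rich cluster but little of its Gadd45a.

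The next cluster, led by Lhx1, Pax4 and Fev, transcription factor genes of later endocrine precursors, had less of both genes, with 461 and 522 CPM of Cdkn1a and 286 and 306 CPM of Gadd45a. Cdkn1b went the other way and was at 151 and 149 CPM there against 48.7 and 50.1 CPM in the cluster with most Neurog3, a log2 ratio of 1.64 (1.46 to 1.81) in Control and 1.57 (1.33 to 1.82) in Null. Btg2 (738 and 749 CPM) and Trp53inp1 (119 and 126 CPM) had their highest values of these 9 clusters there. In the cluster led by Chgb, a secretory granule gene, Cdkn1a had 216 and 228 CPM, Gadd45a 63.4 and 71.9 and Trp53inp1 54.6 and 49.6, while Cdkn1b was at 148 and 164 CPM, within counting error of the Lhx1-led cluster in both libraries.

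**Figure D2:**
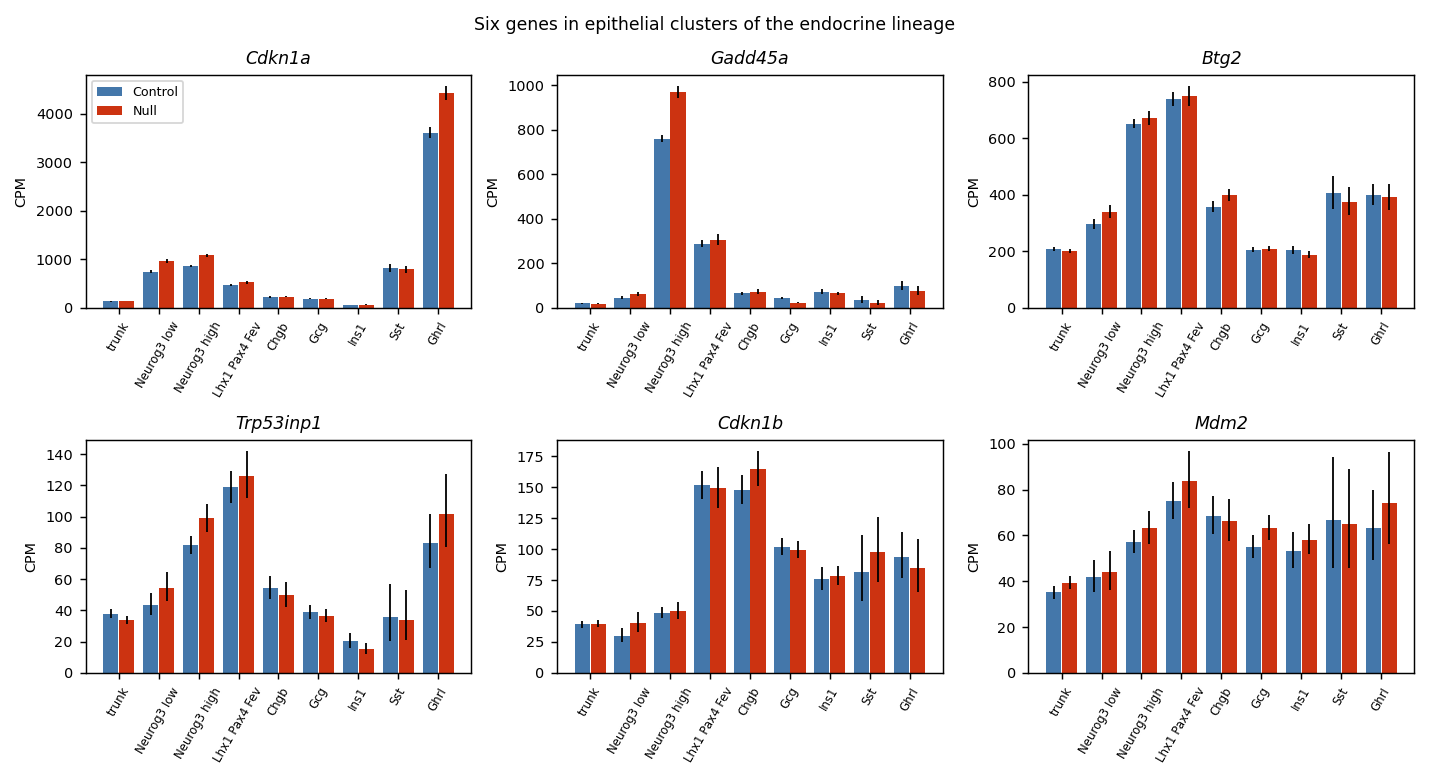
CPM of 6 genes in 9 epithelial clusters of the endocrine lineage, ordered from trunk through Neurog3-positive cells to hormone-led clusters, for the Control (blue) and Null (red) library; bars start at 0 and lines are exact 95% Poisson intervals. Gadd45a is concentrated in the cluster with most Neurog3 (761 and 970 CPM), Cdkn1b in the following 2 clusters, and Cdkn1a is highest in the cluster led by Ghrl (3617 and 4434 CPM).

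Hormone-led clusters differed in Cdkn1a. The cluster led by Ins1, the insulin gene, had 52.5 CPM in Control and 62.8 CPM in Null. The Gcg-led cluster (563 and 397 cells), named for the glucagon gene, had 187 and 184 CPM. Another cluster led by Gcg (426 and 88 cells), of lower UMI count with 4591 and 2498 at the median, was left out of this comparison. A small cluster led by Sst, the somatostatin gene (38 and 34 cells), had 812 and 791 CPM. The cluster led by Ghrl, the ghrelin gene (78 Control and 41 Null cells), which met no subclass and stands outside the endocrine class, had 3617 CPM (3506 to 3731) and 4434 CPM (4286 to 4586), a log2 ratio of 4.27 and 4.59 over the Gcg-led cluster. Cdkn1b in that cluster was 93.9 and 84.8 CPM, within counting error of the Gcg-led cluster (101.6 and 99.3 CPM), and Mdm2 was 63.2 and 74.4 CPM against 55.1 and 63.3. Other members were higher in the Ghrl-led cluster too, with log2 ratios over the Gcg-led cluster in Control and Null of 1.23 and 1.74 for Gadd45a, 1.10 and 1.48 for Trp53inp1 and 0.96 and 0.90 for Btg2, and 1.68 in Control for Phlda3. Trp53cor1 (GRCm38 chromosome 17, 29057430 to 29079179, minus strand), a long noncoding RNA gene beside Cdkn1a that was picked after its values were seen, had 163 and 167 CPM there against 13.9 and 12.2 CPM in the Gcg-led cluster.

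Ductal or trunk progenitor, endocrine progenitor, endocrine and Ghrl-led cells were also split by their own Neurog3 UMIs, counted after thinning each cell to 5000 UMIs. Cdkn1a was at 119 and 131 CPM in cells without a Neurog3 UMI, at 350 and 463 CPM with 1, at 682 and 991 CPM with 2 to 4, at 996 and 1476 CPM with 5 to 9, and at 894 and 1040 CPM with 10 or more. Its highest value thus lay in the second highest bin. The bins include Ghrl-led cells, which are far richer in Cdkn1a, and their part in this order was not tested. Gadd45a went from 20.7 and 23.3 CPM at 0 to 45.3 and 34.1 at 1, 156 and 98.7 at 2 to 4, 462 and 480 at 5 to 9 and 858 and 952 at 10 or more, with no turn. Cdkn1b stayed between 60.2 and 76.9 CPM in Control and between 61.7 and 69.5 CPM in Null. Split by Ghrl instead, Cdkn1a was at 214 and 223 CPM in cells without a Ghrl UMI and at 1552 and 1918 CPM in the 124 and 69 cells with 10 or more.

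**Figure D3:**
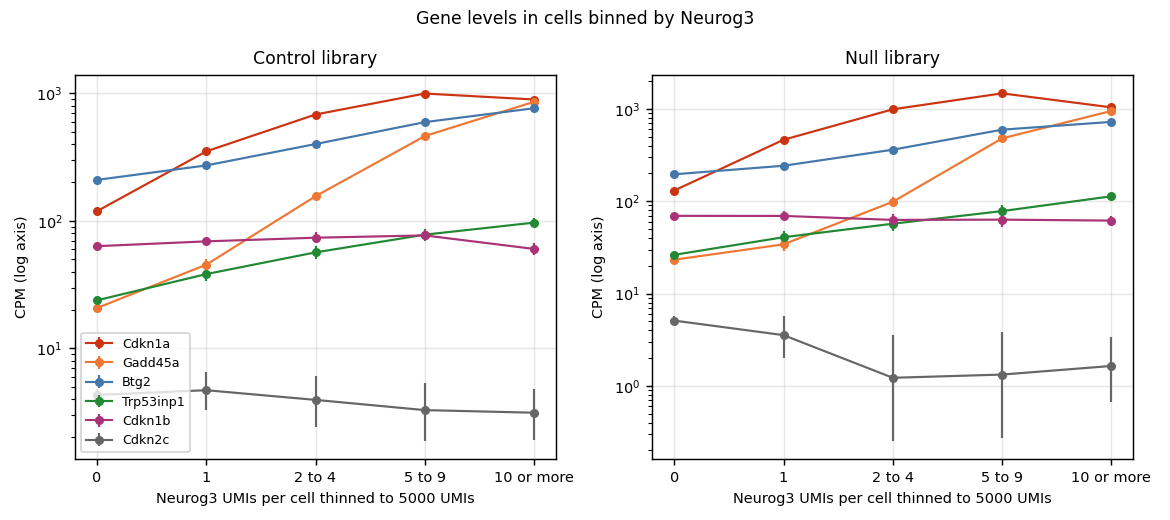
CPM (log axis) of 6 genes in ductal or trunk progenitor, endocrine progenitor, endocrine and Ghrl-led cells binned by Neurog3 UMIs per cell after thinning to 5000 UMIs, for each library, with exact 95% Poisson intervals. Cdkn1a is highest at 5 to 9 UMIs (996 and 1476 CPM) and Gadd45a at 10 or more (858 and 952 CPM), while Cdkn1b is flat.

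Genes whose level over the 10 classes of both libraries (20 points, which share libraries and cells) was most like that of each gene were listed as a description. For Gadd45a they were Btbd17, Krtap17-1 and Nhlh1 (Pearson r of log2(CPM + 1) 0.9593, 0.9528 and 0.947), for Cdkn1a Cib1, Rsad2 and Fgd2 (0.9438, 0.9432 and 0.9421), and for Trp53inp1 Ramac, Hes6 and Ago1 (0.9331, 0.9312 and 0.9273). Cdkn2c was most like Lockd, Nuf2 and Cep128 (0.9448, 0.9197 and 0.9174) and Phlda3 most like Zc3hc1, Mettl2 and Peg12 (0.967, 0.9476 and 0.9465). Btbd17 and Hes6 are among the markers that named the endocrine progenitors.

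Dividing and other cells of the same class were then compared, where a cell thinned to 5000 UMIs was called dividing at 2 or more UMIs of Mki67 and Top2a and other at 0, and levels were taken from all its UMIs. Cdkn2c had at least 20 UMIs in 13 of the 16 class and library combinations and was higher in dividing cells in all 13, by 1.35 to 4.78 on the log2 scale (median 2.69), in 12 with an interval above 0. In Control ductal or trunk progenitor cells it was at 8.77 CPM in dividing and 1.10 CPM in other cells, and in Null 11.3 and 1.06 CPM. Mesothelial cells had 17.1 against 0.880 CPM in Control and 30.9 against 1.13 CPM in Null. Cdkn2c was thus higher in dividing cells outside the mural class too.

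Other members went with division in fewer classes. Trp53inp1 was lower in dividing cells with an interval below 0 and past 1.5-fold in 8 of 16 combinations, among them ductal or trunk progenitor cells (log2 ratio -1.31 in Control and -1.44 in Null) and acinar cells (-1.02 and -1.29). Cdkn1a was lower in dividing ductal or trunk progenitor cells, at 86.6 against 173 CPM in Control and 95.8 against 221 CPM in Null. This class includes the Grin3a-led cluster (258 and 124 cells), which had 742 and 957 CPM of Cdkn1a. Its part in the difference was not tested. In endocrine progenitors, where 155 Control and 31 Null cells were called dividing, Cdkn1a was 776 and 889 CPM in dividing and 705 and 883 CPM in other cells. Cdkn1b was higher in dividing acinar cells (0.66 and 0.67) and ductal or trunk progenitor cells (0.67 and 0.84), but lower in dividing Control endocrine cells (-0.45, -0.62 to -0.29), and at -0.22 (-0.44 to 0.00) and -0.01 (-0.38 to 0.33) in endocrine progenitors. Mdm2 was past 1.5-fold in none of the 16 combinations. In acinar cells 2 of the 10 genes were at least 1.5-fold higher and 1 lower in dividing cells of each library, where 6.23% of all measured genes were higher and 5.22% lower in Control, and 6.56% and 9.23% in Null. In ductal or trunk progenitor cells 2 were higher and 2 lower in each library, against 6.46% and 9.69% of genes in Control and 7.31% and 14.4% in Null. In endocrine cells 2 were higher and 1 lower in Control (14.5% and 19.2% of genes) and 1 and 1 of 8 in Null (25.3% and 11.6%). In endocrine progenitors 2 and 1 were past the fold in Control (13.3% and 13.4%) and 1 and 2 of 8 in Null (17.5% and 25.2%). Leukocytes had 1 and 2 in Control (15% and 9.56%) and 1 and 1 in Null (17.4% and 14.6%). Mesenchymal cells had 1 and 0 in Control (12.9% and 4.77%) and 2 and 0 of 9 in Null (12.3% and 10.4%), and mesothelial cells 1 and 0 in Control (9.77% and 6.81%) and 2 and 2 in Null (11.5% and 11.8%). Mural cells had 5 and 1 in Control (28.5% and 17.7%) and 3 and 1 in Null (18.5% and 15.9%).

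**Figure D4:**
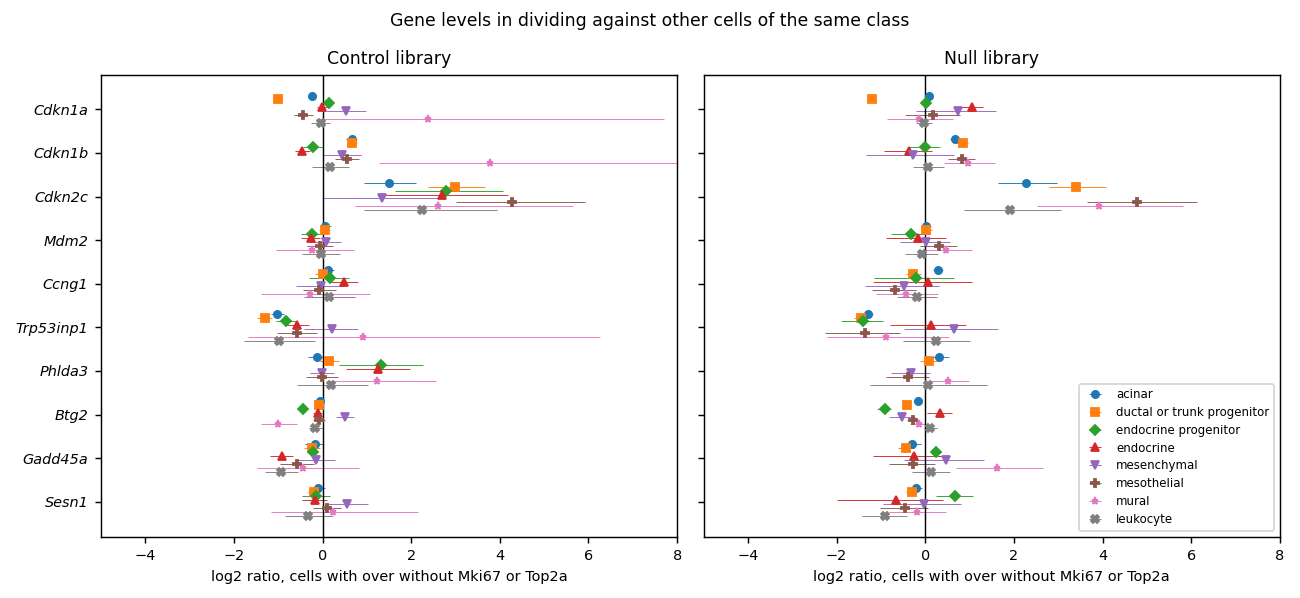
Log2 ratio of CPM in cells with at least 2 Mki67 or Top2a UMIs over cells with none (thinned to 5000 UMIs), for each gene and class, with exact 95% intervals; points need 20 UMIs, and some intervals run past the frame. Cdkn2c lies above 0 in all 13 shown combinations (1.35 to 4.78) and Trp53inp1 lies mostly below.

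The question posed by the design is what differs without Fgf9, and in acinar and ductal or trunk progenitor cells, which have the most UMIs, none of the 10 genes was past 1.5-fold in either direction. Among all genes with at least 20 UMIs, 5.39% were higher and 7.62% lower in Null acinar cells, and 8.32% and 5.17% in ductal or trunk progenitor cells. Among genes with UMI counts in the range of the members, the shares were smaller. They were 1.58% and 1.37% in acinar cells and 2.61% and 0.905% in ductal or trunk progenitor cells. The members' median log2 ratios of Null over Control were 0.05 and 0.18, against -0.02 and 0.10 for all genes. Both classes pool clusters in unlike shares. Among ductal or trunk progenitor cells, a cluster led by Tagln and Tgfb2 held 5 Control and 122 Null cells, and one led by Onecut2 0 and 56. Among acinar cells, a cluster led by the enzyme gene Cela2a held 251 and 617. The part of this mix in the ratios was not tested. Trp53inp1 in acinar cells was just under the fold at 0.58 (0.50 to 0.66), with 18.1 CPM in Control and 27.2 CPM in Null, and was 0.23 when clusters were weighted alike and up to 0.60, past the fold, under other settings. Cdkn1a was 0.17 (0.13 to 0.21) in acinar cells and 0.31 (0.27 to 0.35) in ductal or trunk progenitor cells.

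In endocrine progenitors the genes that mark them differed little between the libraries. Cdkn1a was 0.31 (0.26 to 0.35) and Gadd45a 0.33 (0.28 to 0.38) higher in Null on the log2 scale, and Btg2 was at 0.03 (-0.02 to 0.08). Over 10 alternatives the Cdkn1a ratio ranged down to -0.05 and that of Gadd45a to -0.03. The median over members was 0.09 against 0.06 for all genes. None was past the fold upwards (5.14% of all genes), and 2 were past it downwards (7.72%): Phlda3 at -1.22 (-2.31 to -0.26; 51 and 11 UMIs) and Cdkn2c at -1.04 (-2.21 to -0.02; 41 and 10 UMIs). With 50 principal components Phlda3 was at -0.27. Free RNA was estimated to supply 41.1% and 80.2% of the Phlda3 UMIs and 51.1% and 21.7% of the Cdkn2c UMIs in Control and Null. The Control shares rest on 1 free RNA UMI of each gene. Of 20 S phase genes, 12 were lower in Null. The part of free RNA and S phase genes in these ratios was not tested.

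Phlda3 and Cdkn2c were also low in Null endocrine cells. Phlda3 had 102 UMIs (4.40 CPM) in Control and 19 UMIs (1.06 CPM) in Null, a log2 ratio of -2.06 (-2.85 to -1.34), and Cdkn2c 32 UMIs (1.38 CPM) and 5 UMIs (0.279 CPM), a ratio of -2.31 (-4.03 to -0.94). These 2 lower genes stand beside 13% of all genes lower and 6.28% higher, and no member was past the fold upwards. Markers of other cell types were also higher in Control endocrine cells, with 8 of 9 acinar markers (summed 4051 against 1241 CPM) and 5 of 7 measured mesenchymal markers (84.8 against 54.4 CPM) past the fold, of which none was at 0. All 20 G2/M genes were lower in Null as well (summed 1145 CPM in Control, median log2 ratio -2.92). Free RNA was estimated to supply all Control Cdkn2c UMIs (its cap) and 43.6% of Phlda3, against 87.2% and 93.1% in Null. The Control shares rest on 1 free RNA UMI of each gene. The mix of cells in the class differed too. Of 1556 Control and 896 Null endocrine cells, the Ins1-led cluster held 208 and 198. A Gcg-led cluster of low UMI count held 426 and 88. Beta cell markers summed to 13980 and 34347 CPM, with 7 of 8 past the fold upwards in Null. The part of other cell types' markers, this mix, G2/M genes and free RNA in the 2 ratios was not tested. Over the alternatives that gave a value Phlda3 ranged from -5.65 to -1.74 and Cdkn2c from -2.79 to -1.18. The kinase inhibitor gene Cdkn1c (p57) was at 198 and 99.0 CPM in the same cells (log2 interval -1.08 to -0.92) and Chek2, a checkpoint kinase gene, at 6.74 and 1.62 CPM (-2.06, -2.68 to -1.48).

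In mesothelial cells, the covering layer of the organ, Cdkn1a was the gene of the group with the largest difference among those with over 100 UMIs in each library. It had 920 UMIs (60.4 CPM, 1116 cells) in Control and 131 UMIs (13.5 CPM, 509 cells) in Null, a log2 ratio of -2.17 (-2.44 to -1.90) that stayed between -2.51 and -1.88 over 11 alternatives. Epithelial markers were higher in Control mesothelial cells, summed 736 against 327 CPM with 5 of 6 past the fold, and mesenchymal markers were higher in Null, 2944 against 8901 CPM with 6 of 8 past it. Erythroid markers were at 25.9 and 1055 CPM, with 7 of 7 measured past the fold upwards in Null. The class's own 8 mesothelial markers summed to 865 and 1053 CPM, below its mesenchymal markers. The part of these markers in the Cdkn1a ratio was not tested. In the 184 Control and 232 Null cells without an Epcam or Cdh1 UMI, Cdkn1a was at 39.1 CPM (31.0 to 48.6) and 10.3 CPM (7.50 to 13.8). Among barcodes not called doublets a second time it was at 48.8 and 13.3 CPM. A separate unnamed cluster of low UMI count, led by AY036118, Crabp1 and Aldh1a2 and holding mesothelial markers (1175 and 653 barcodes), had 59.7 CPM (50.9 to 69.5) and 27.2 CPM (18.5 to 38.7). Cdkn1a was thus lower in Null in each of these subsets, by less in the cluster of low UMI count.

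Btg2 was higher in the Null library in all 3 stromal classes. It was at 86.5 and 177 CPM in mesenchymal cells (1.03, 0.93 to 1.13), 162 and 253 CPM in mesothelial cells (0.64, 0.56 to 0.73) and 103 and 160 CPM in mural cells (0.64, 0.49 to 0.79). Immediate early genes, which respond within minutes to growth factors and to tissue handling, were higher in the same classes, 9 of 16 past the fold in mesenchymal (median 0.62), 11 of 16 in mesothelial (0.79) and 6 of 16 in mural cells (0.41), with Egr1 at 1.37, 1.30 and 0.99 and Fos at 0.98, 1.22 and 0.78. Over all genes 8.89%, 11.4% and 9.77% were past the fold upwards in these 3 classes, with medians of 0.01, -0.04 and 0.00. The part of immediate early genes in the Btg2 ratio was not tested. Btg2 was at 0.24 in acinar and -0.12 in ductal or trunk progenitor cells. Of 16 immediate early genes there, 1 in each was past the fold upwards (5.39% and 8.32% of all genes) and 1 and 0 downwards (7.62% and 5.17%). In these 2 classes 14 and 10 of the 16 were above 0, with medians of 0.14 and 0.07.

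**Figure D5:**
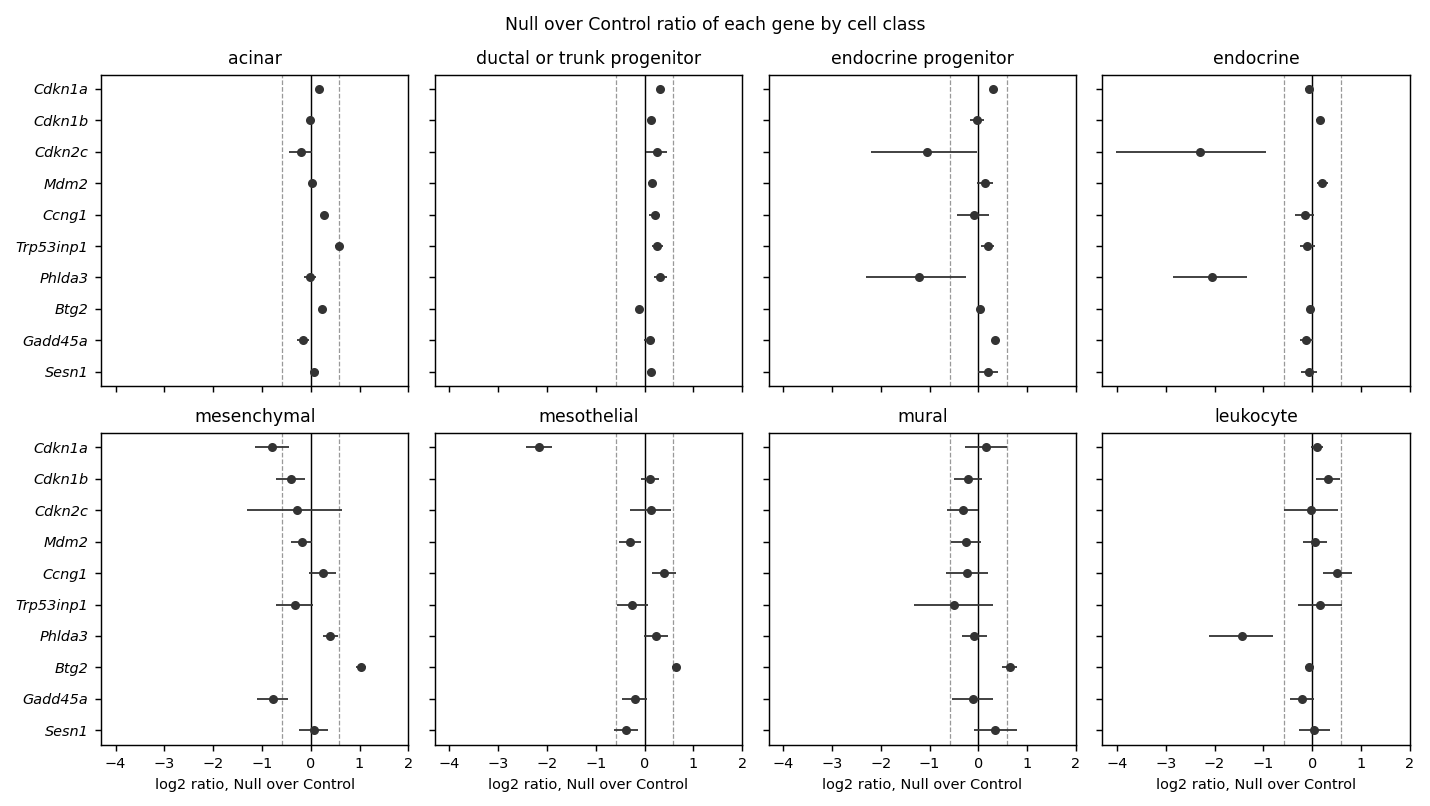
Log2 ratio of CPM, Null over Control, for each of the 10 genes in the 8 classes with at least 200 cells per library, with exact 95% intervals (counting error only); dashed lines mark 1.5-fold. All points of acinar and ductal or trunk progenitor cells lie inside the dashed lines, and the largest difference outside the endocrine classes is Cdkn1a in mesothelial cells (-2.17).

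Counted over members, 1 was higher and 2 lower in mesenchymal cells (background 8.89% and 12.7%), 1 and 1 in mesothelial cells (11.4% and 12.9%), 1 and 0 in mural cells (9.77% and 8.29%) and 0 and 1 in leukocytes (9.56% and 20.1%), so 11 of 80 ratios were past the fold over all 8 classes. The 2 lower in mesenchymal cells were Cdkn1a (19.3 and 11.1 CPM, -0.79, -1.14 to -0.45) and Gadd45a (23.8 and 13.9 CPM, -0.78, -1.10 to -0.47), and the Gadd45a ratio was short of the fold when cells were thinned (-0.52), with 50 principal components (-0.55) and in cells without an Epcam or Cdh1 UMI (-0.46). Epithelial markers in these cells were 537 CPM in Control and 190 CPM in Null, with 6 of 6 past the fold, and free RNA was estimated to supply 85.5% and 45.1% of their Cdkn1a. With free RNA subtracted the Cdkn1a ratio turned to 0.76, where the Control free RNA profile held 11 Cdkn1a UMIs. The lower one in leukocytes was Phlda3 (14.6 and 5.36 CPM, -1.44, -2.12 to -0.80), and there the mesenchymal markers were at 497 and 64.6 CPM, with 7 of 7 measured past the fold. In Y-linked cells of both libraries that ratio was -0.48.

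Other genes of the 2 pathways were read from fixed lists. Of 24 further p53 targets, 1 was higher and 0 lower in acinar cells, 2 and 0 in ductal or trunk progenitor cells, 0 and 2 of 21 in endocrine cells, 0 and 1 of 20 in endocrine progenitors, 2 and 3 of 23 in leukocytes, 3 and 1 in mesenchymal cells, 2 and 0 of 22 in mesothelial cells and 1 and 3 of 21 in mural cells, with list medians from -0.17 (mural) to 0.14 (ductal or trunk progenitor) over the 8 classes. Over all genes the shares higher and lower were 5.39% and 7.62% in acinar, 8.32% and 5.17% in ductal or trunk progenitor, 6.28% and 13% in endocrine, 5.14% and 7.72% in endocrine progenitor, 9.56% and 20.1% in leukocyte, 8.89% and 12.7% in mesenchymal, 11.4% and 12.9% in mesothelial and 9.77% and 8.29% in mural cells, and most of the list's counts lie near or below them. Pmaip1, an apoptosis gene, was at 1.06 and 3.18 CPM in ductal or trunk progenitor cells (1.58, 1.19 to 1.99), and Perp, a junction protein gene, at 3.22 and 10.7 CPM in mesothelial cells (1.73, 1.23 to 2.25) but at 3.47 and 1.29 CPM in mesenchymal cells (-1.42). Trp53 itself, named here for its role, was at 0.00 in acinar, 0.31 in ductal or trunk progenitor and 0.01 in mesothelial cells. Cdkn1c was at 1416 and 2729 CPM in mesothelial cells (0.95, 0.92 to 0.97), opposite in direction to Cdkn1a. Mesenchymal markers, whose own cells are rich in Cdkn1c, summed there to 2944 and 8901 CPM. Their part in the Cdkn1c ratio was not tested. Ccnd1, encoding cyclin D1, was at 77.1 and 18.4 CPM in mesothelial cells (-2.07, -2.30 to -1.84). There 7 of 20 S phase and 4 of 20 G2/M genes were lower and none higher, beside 12.9% and 11.4% of all genes.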

How the data were processed

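The deposited values are raw UMI counts per gene and barcode, which the authors produced with Cell Ranger 6.1.1 on mm10, per the submitters' processing notes; how strand was treated is not given there. The 10 genes and 8 further lists were chosen with earlier results of these data known. Barcodes with at least 1000 UMIs, 300 genes and under 15% mitochondrial UMIs were kept. Scrublet (scanpy 1.11.5) removed doublets per library; its automatic threshold (0.548) called 0 Control barcodes, so a score of 0.25 was used (220 of 27179, 0.809%), against 573 of 9404 (6.09%) in Null, and a second call on barcodes with at least 5000 UMIs marked 1327 (9.55%) and 304 (3.95%). Cells were clustered on 2000 variable genes without the 10 genes or the lists other than S phase and G2/M (30 principal components, 15 neighbours, Leiden resolution 1), without batch integration. Clusters were named for the marker list with the highest scaled mean (0 at the 25th percentile of clusters, 1 in the highest), given at least 3 markers detected in 10% of cells. These naming thresholds were set after seeing the data. Epithelial cells were clustered again.

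UMIs were summed per class and library and scaled to CPM without haemoglobin and mitochondrial genes. Ratios carry the exact conditional 95% interval of 2 Poisson counts. Classes with at least 200 cells per library were compared, and a gene needed 20 UMIs over both libraries to enter a count or median. "Past the fold" means at least 1.5-fold. Named list genes had at least 50 UMIs, were past the fold with an interval excluding 0, and came first by the bound nearest 0, up to 4 per list and class; all 10 members were reported. Coordinates are from GENCODE vM21 (GRCm38). The ratio code was tested on simulated data.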

Additional observations from a re-analysis of the deposited data

How the results depend on the processing

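Each ratio of Null over Control was recomputed under up to 9 other settings and 2 added after seeing the data (leaving out barcodes found in both libraries, and using only cells without an Epcam or Cdh1 UMI). Of 814 recomputed member ratios 665 stayed within the counting interval, 148 moved outside it without a called ratio changing sign, and 1 reversed. The median over members moved beyond its interval in 5 of 82 recomputations: with free RNA subtracted it was -0.28 in endocrine, -0.14 in endocrine progenitor and 0.28 in mesenchymal cells, with every cell thinned to 2000 UMIs -0.02 (-0.019) in endocrine progenitors, and in cells without an Epcam or Cdh1 UMI 0.35 in leukocytes; the cause was not tested. The reversed ratio was Cdkn1a in mesenchymal cells (0.76 with free RNA subtracted). Of the 11 ratios past 1.5-fold, 5 were not past it under some alternative: Cdkn1a in mesenchymal cells (-0.13 with clusters weighted alike), Gadd45a there (-0.46 in cells without an Epcam or Cdh1 UMI), Btg2 in mural cells (0.56 without the second doublet call), Phlda3 in endocrine progenitors (-0.27 with 50 principal components) and Phlda3 in leukocytes (-0.48 in Y-linked cells). Of the 69 others, 21 passed it under some alternative. Of 310 recomputed ratios of dividing over other cells 1 reversed, Cdkn1a in Null endocrine cells (-1.20 thinned to 2000 UMIs), where 15 cells were called dividing. Mural cells fell under 200 cells with 50 principal components, and free RNA was not subtracted from acinar cells. No paired analysis was possible because each group is 1 library. Depth limits Cdkn2c and Phlda3 in the endocrine classes, which rest on 5 to 19 Null UMIs.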

Other observations

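Relatives of the 10 genes showed patterns of their own. Gadd45b, a second member of the Gadd45 family, was at 80.0 CPM in Control and 177 CPM in Null mesenchymal cells (log2 ratio 1.15, 1.04 to 1.25) and at 89.7 and 142 CPM in mural cells (0.66, 0.50 to 0.83). Gadd45g, the third member, was at 25.7 and 48.7 CPM in mesothelial cells (0.92, 0.73 to 1.12) and at 33.5 and 21.1 CPM in leukocytes (-0.67). Phlda1, related to Phlda3, was lower in the Null library in endocrine cells (61.6 and 33.7 CPM, -0.87), mesothelial cells (41.2 and 24.2 CPM, -0.77), mural cells (115 and 76.8 CPM, -0.59) and leukocytes (69.8 and 31.8 CPM, -1.13).

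Cyclin E genes were lower in Null endocrine progenitors, with Ccne1 at 17.5 and 8.08 CPM (-1.11, -1.56 to -0.69) and Ccne2 at 16.9 and 6.21 CPM (-1.44, -1.95 to -0.97), beside 12 of 20 S phase genes lower and none higher. Cdkn1c in leukocytes was at 381 CPM in Control and 50.1 CPM in Null (-2.93, -3.12 to -2.74), where mesenchymal markers, whose cells held Cdkn1c at 4533 and 4245 CPM, summed to 497 and 64.6 CPM; their part in it was not tested.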
